A study of Mus musculus with 6 samples.

Results

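The imprinted Dlk1-Meg3 domain of mouse chromosome 12 was followed through 3 kinds of cultured spermatogonial stem cell by 4 of its genes, Dlk1, Meg3, Rian and Mirg, of 18194 genes measured. Every probe set that carried the symbol of 1 of these genes and no other was taken, which gave 19 probe sets of the 34958 with exactly 1 gene symbol: 2 for Dlk1, 11 for Meg3, 4 for Rian and 2 for Mirg. The genes were chosen with their signals on these arrays in view, in particular the gap between the mSSC arrays, so their values are given as a description, no p-value is printed for any of them, and nothing is read from their counts of calls. The cells are multipotent mSSC, intermediate-state iSSC and unipotent germ-line SSC, with 2 arrays of each, and n = 2 holds for every group mean below. All came from testis cells of male ICR mice aged 3 to 5 days, and no transgene or deletion is named in the labels. Clumps of cells at passages 0 to 1 or 9 to 10 were moved onto feeder layers of mouse embryonic fibroblasts treated with mitomycin, which stops their growth, and the 3 kinds were picked by hand by their shape. Flattened or ES-like colonies were kept in GS medium or moved to KSR-mES medium. The labels do not say which array came from which medium or passage, or whether the arrays of a kind are separate cultures. The spread behind each p-value is that of these arrays alone, which may be technical.

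In mammals the Dlk1-Meg3 domain is read from the parental chromosomes in opposite ways. Dlk1, which encodes a transmembrane protein related to the Notch ligands, is expressed from the paternal copy, and the noncoding RNAs Meg3, Rian and Mirg from the maternal copy. The noncoding RNAs lie in a row on the same strand and are thought to come from a common run of transcription that starts at Meg3. Rian carries small nucleolar RNAs and Mirg a large cluster of microRNAs. An intergenic control region, methylated on the paternal copy from the male germ line on, decides which side is active, and in mouse pluripotent stem cells the maternal RNAs are known to be silenced in some lines and active in others.

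The starts of Dlk1 and Meg3 are shown because all 17 noncoding probe sets were higher in mSSC replicate 2 than in replicate 1, and their common transcription is thought to start at Meg3, while Dlk1 is a separate gene read from the other parental copy. The RefSeq promoter windows, from 250 bases before to 50 bases after the start on GRCm38.p6, are written 5′ to 3′ with CpG pairs, the sites of DNA methylation, in capitals. The first of the 2 Meg3 starts in the RefSeq table is printed. Its window lies at chr12:109540746-109541045 and the Dlk1 window at chr12:109452573-109452872, both on the plus strand.
Meg3: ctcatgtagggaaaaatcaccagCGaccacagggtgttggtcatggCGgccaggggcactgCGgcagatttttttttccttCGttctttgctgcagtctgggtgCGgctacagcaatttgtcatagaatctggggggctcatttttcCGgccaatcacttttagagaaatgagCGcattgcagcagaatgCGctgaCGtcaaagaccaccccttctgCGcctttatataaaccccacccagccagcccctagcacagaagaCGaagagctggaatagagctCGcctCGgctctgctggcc
Dlk1: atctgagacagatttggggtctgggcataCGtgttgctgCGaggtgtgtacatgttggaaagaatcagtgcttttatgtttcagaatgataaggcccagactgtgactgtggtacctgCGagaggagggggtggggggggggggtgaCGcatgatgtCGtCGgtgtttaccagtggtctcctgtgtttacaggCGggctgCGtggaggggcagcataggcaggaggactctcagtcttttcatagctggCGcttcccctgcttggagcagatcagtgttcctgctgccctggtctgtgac
The Meg3 window held 13 CpG pairs and the Dlk1 window 9, against a median of 7 over 32841 mouse promoter windows of the same length. The window of the second Meg3 start, at chr12:109545148-109545447, held 1 CpG pair and none of the motifs given next. The Rian window held 0 CpG pairs and the Mirg window 10. On either strand the printed Meg3 window held the cAMP response element TGACGTCA, found in 1.79% of all windows, the TATA box TATAAA (13.6%), the CCAAT box CCAAT (37.4%) and TGCCGC (11.6%), the hexamer that the imprint-guarding protein Zfp57 recognises when it is methylated. The TATAAA matches overlap each other on opposite strands, and none of the 4 motifs was present in the Dlk1 window.

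Mirg is named for its microRNAs, which these arrays did not measure. On the plus strand between the start of Dlk1 and the end of Mirg the RefSeq table placed 54 microRNA hairpins with 106 mature arms and 97 distinct seeds, and 10 of the hairpins lie within Mirg itself. The 4 arms below show how members of the cluster share a seed (bases 2 to 8, in capitals), as 8 of the seeds were shared.
mmu-miR-453: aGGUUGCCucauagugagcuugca
mmu-miR-496a-5p: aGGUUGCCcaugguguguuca
mmu-miR-410-5p: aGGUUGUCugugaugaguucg
mmu-miR-494-5p: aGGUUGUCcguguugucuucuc
The first 3 of these arms lie within Mirg, at chr12:109735669-109735692, chr12:109739132-109739152 and chr12:109743729-109743749, and the last lies upstream of it at chr12:109715334-109715355.

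Signals are the deposited log2 values, and a difference of 1 is a 2-fold change. The array medians lay between 5.83 and 5.93 and the lower quartiles between 4.23 and 4.38. A probe set under the lower quartile is near background, and a log2 difference from it is that of the deposited signals and not a measured fold. Levels of different probe sets are not set against each other. Marker genes followed the labels of mSSC and SSC. Of 20 pluripotency genes 19 rose in mSSC against SSC, among them Nanog (8.66 ± 0.33 SE, limma adjusted p = 0.000986, near background in SSC). Of 22 germ line genes 15 fell and 2 rose, with Zbtb16, which encodes Plzf, at -5.39 ± 0.57 (limma adjusted p = 0.00628). These lists did not set iSSC apart from SSC: 0 of the 20 and 0 of the 22 were called, with medians of 0.16 and 0.18. In that comparison 0.236% of all genes were called. Fibroblast genes had median levels of 7.15 and 9.17 in mSSC, 9.84 and 10.22 in iSSC and 11.79 and 10.99 in SSC. In bulk samples like these fewer cells of a type and less RNA per cell cannot be told apart.

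Dlk1, the paternally expressed protein gene of the domain, was lowest in mSSC. Probe set 1449939_s_at read 6.20 and 7.42 in mSSC, 8.30 and 9.26 in iSSC and 8.69 and 8.95 in SSC. Both mSSC arrays lay below the other 4, and the iSSC and SSC arrays overlapped. Such a separation of 2 arrays from 2 is not rare: in iSSC, 18.8% of all probe sets lay below both SSC arrays. The share for mSSC is not given here. The mean was 2.01 ± 0.50 (SE) lower in mSSC than in SSC, a 4.02-fold difference, and 1.97 ± 0.50 lower than in iSSC. The iSSC minus SSC difference was -0.04 ± 0.50. The other Dlk1 probe set, 1442724_at, read between 4.57 and 5.09 on every array, below each array's median, and showed no such order. The lower level of Dlk1 in mSSC therefore rests on 1 of its 2 probe sets.

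Meg3, the first of the maternally expressed RNAs, differed more between the mSSC arrays than between kinds. The probe set with the highest mean signal, 1439380_x_at, read 7.80 and 10.92 in mSSC, 8.93 and 9.01 in iSSC and 11.28 and 10.09 in SSC. The iSSC arrays lay below both SSC arrays, while mSSC replicate 1 was the lowest of the 6 arrays and mSSC replicate 2 lay between the SSC arrays. Probe set 1452905_at had the same order, with 5.93 and 9.62 in mSSC, 7.43 and 7.78 in iSSC and 10.17 and 9.06 in SSC. In 1452183_a_at the mSSC arrays read 8.00 and 10.67, the iSSC arrays 7.98 and 8.02 and the SSC arrays 10.78 and 9.26. In 1426758_s_at they read 7.43 and 9.65 in mSSC, 7.17 and 7.48 in iSSC and 9.95 and 8.41 in SSC. In these last 2 probe sets mSSC replicate 1 was close to the iSSC arrays instead of below them. The iSSC minus SSC difference of the 4 probe sets lay between -2.02 and -1.72, and that of mSSC minus SSC between -1.84 and -0.64, with SEs from 0.82 to 1.15.

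Probe set 1436713_s_at, also annotated to Meg3 but with its target not checked against a genome, followed another course. It read 5.19 and 9.98 in mSSC, 5.52 and 7.30 in iSSC and 6.55 and 8.84 in SSC. Replicate 2 was higher than replicate 1 in all 3 kinds, by 4.79, 1.78 and 2.29, whereas SSC replicate 2 minus replicate 1 lay between -1.54 and -1.11 in the 4 probe sets above. Over the 6 arrays its Pearson correlation was 0.889 to 0.972 with the 3 Rian probe sets that had a range of at least 2, and 0.567 to 0.664 with the 4 Meg3 probe sets, which correlated among themselves at 0.886 to 0.995. These correlations share the same 6 arrays and are descriptions. The other 6 Meg3 probe sets had ranges under 2. All 11 Meg3 probe sets were higher in mSSC replicate 2 than in replicate 1, by 0.13 to 4.79.

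Rian, the RNA that follows Meg3 and carries small nucleolar RNAs, was highest in mSSC replicate 2 in all 4 of its probe sets. Probe set 1452899_at read 6.36 and 10.75 in mSSC, 7.03 and 7.72 in iSSC and 7.73 and 8.59 in SSC. The mSSC arrays enclosed all the others, as replicate 1 was the lowest array and replicate 2 the highest by 2.16. Probe set 1427580_a_at read 5.67 and 10.40 in mSSC, 6.49 and 7.23 in iSSC and 6.83 and 8.46 in SSC. Probe set 1428055_at read 3.75 and 7.82 in mSSC, 3.56 and 3.97 in iSSC and 3.74 and 5.13 in SSC, so that it was above the lower quartile only in replicate 2 of mSSC and of SSC. In 1440001_at the mSSC arrays read 5.45 and 7.11, the iSSC arrays 5.25 and 5.42 and the SSC arrays 6.05 and 5.56.

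Mirg, the microRNA host at the far end, was highest in mSSC replicate 2 and nearly level over the other arrays. Probe set 1457030_at read 5.90 and 9.57 in mSSC, 6.03 and 6.15 in iSSC and 6.59 and 6.37 in SSC. Probe set 1440097_at read 6.07 and 8.05 in mSSC, 6.37 and 6.07 in iSSC and 6.57 and 6.52 in SSC. In the first probe set the other 5 arrays lay between 5.90 and 6.59, and mSSC replicate 2 stood 2.98 above the highest of them. In both probe sets the iSSC arrays were below the SSC arrays without overlap, as 18.8% of all probe sets were. The mean differences, -0.39 ± 1.09 and -0.32 ± 0.61 (SE), were smaller than their SEs. Over the 6 arrays Dlk1 1449939_s_at correlated at -0.20 with Mirg 1457030_at, at -0.17 to 0.15 with the 3 wider-ranging Rian probe sets and at 0.09 to 0.51 with the 4 Meg3 probe sets. Those Meg3 probe sets correlated at 0.49 to 0.71 with Rian.

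**Figure D1:**
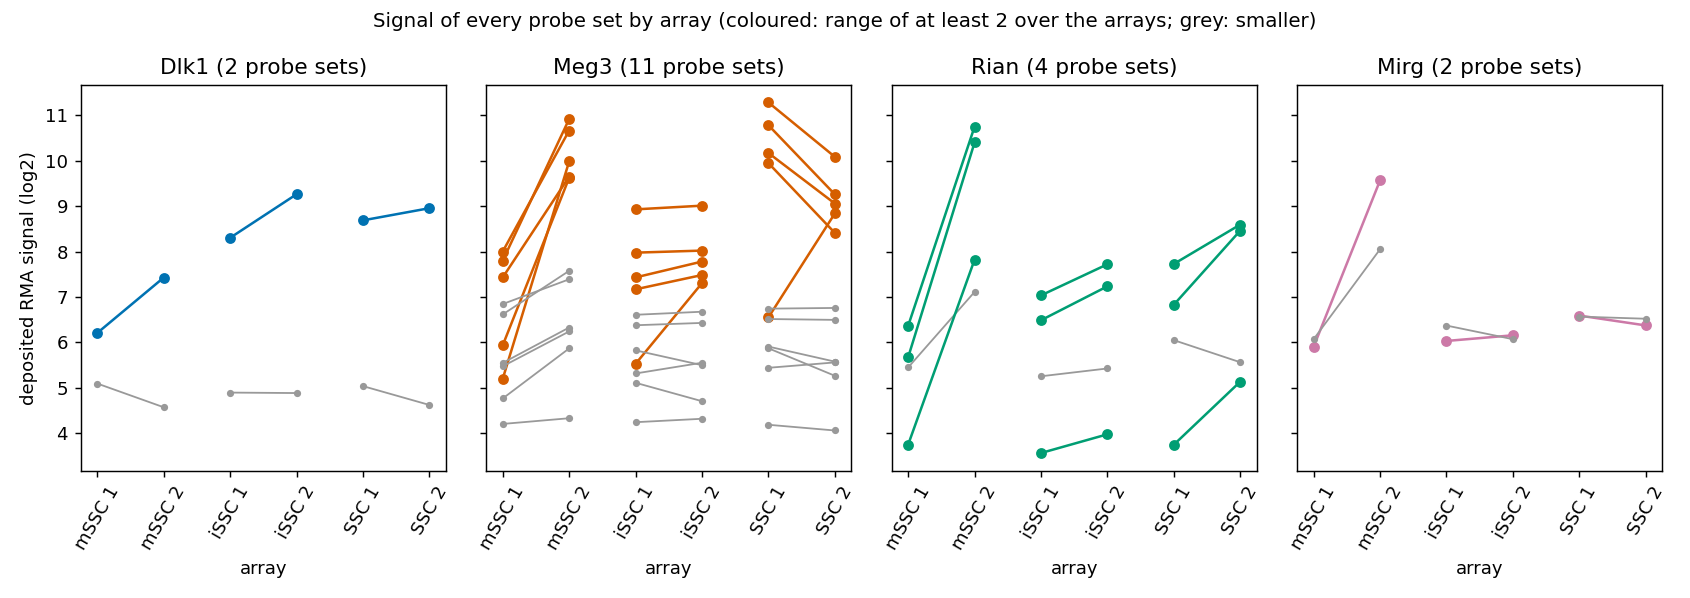
Deposited log2 signal (y axis) of each probe set of Dlk1, Meg3, Rian and Mirg on the 6 arrays (x axis). Points are single arrays, lines join the 2 arrays of a kind, and probe sets with a range of at least 2 are coloured. Rian and Mirg are highest in mSSC replicate 2, the coloured Dlk1 probe set is lowest in mSSC, and in SSC the coloured Meg3 lines run down except 1.

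Between the mSSC arrays the noncoding genes of the domain were among the probe sets with the widest gaps. In mSSC, replicate 2 exceeded replicate 1 by 27.7-fold in Meg3 (1436713_s_at), by 26.6-fold and 20.9-fold in Rian (1427580_a_at and 1452899_at) and by 12.7-fold in Mirg (1457030_at). Of all probe sets with 1 symbol, 0.00572%, 0.00858%, 0.0229% and 0.114% had a larger difference than these. In the 4 Meg3 probe sets first described the excess was smaller, from 4.66-fold to 12.9-fold, with 8.70-fold in 1439380_x_at. Replicate 2 was the higher array in 18 of the 19 probe sets, where 43.5% of all probe sets were. Past 2-fold were 6 of 11 Meg3, 4 of 4 Rian, 2 of 2 Mirg and 1 of 2 Dlk1 probe sets, 13 of 19 in all, where 5.35% of all probe sets with 1 symbol passed. Past 4-fold were 9 of the 19, against 1.10% of all. The median difference over the 19 was 1.98, against -0.07 over all probe sets. These counts come from the contrast that chose the genes and are not a test. The difference for Dlk1 was 1.22 in probe set 1449939_s_at and -0.52 in 1442724_at.

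The arrays of the other kinds differed less in these genes. Over the 19 probe sets the median of replicate 2 minus replicate 1 was 0.12 in iSSC and -0.13 in SSC. In iSSC the widest gap was 1.78, in Meg3 1436713_s_at, followed by 0.96 in Dlk1 1449939_s_at. In SSC the gaps ran both ways, so that a median near 0 does not mean that its arrays agreed. The widest was 2.29, in Meg3 1436713_s_at, and the 4 Meg3 probe sets first described lay between -1.54 and -1.11. The 3 wider-ranging Rian probe sets were higher in SSC replicate 2, by 0.87 to 1.63, and the Mirg differences were -0.22 and -0.05.

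**Figure D2:**
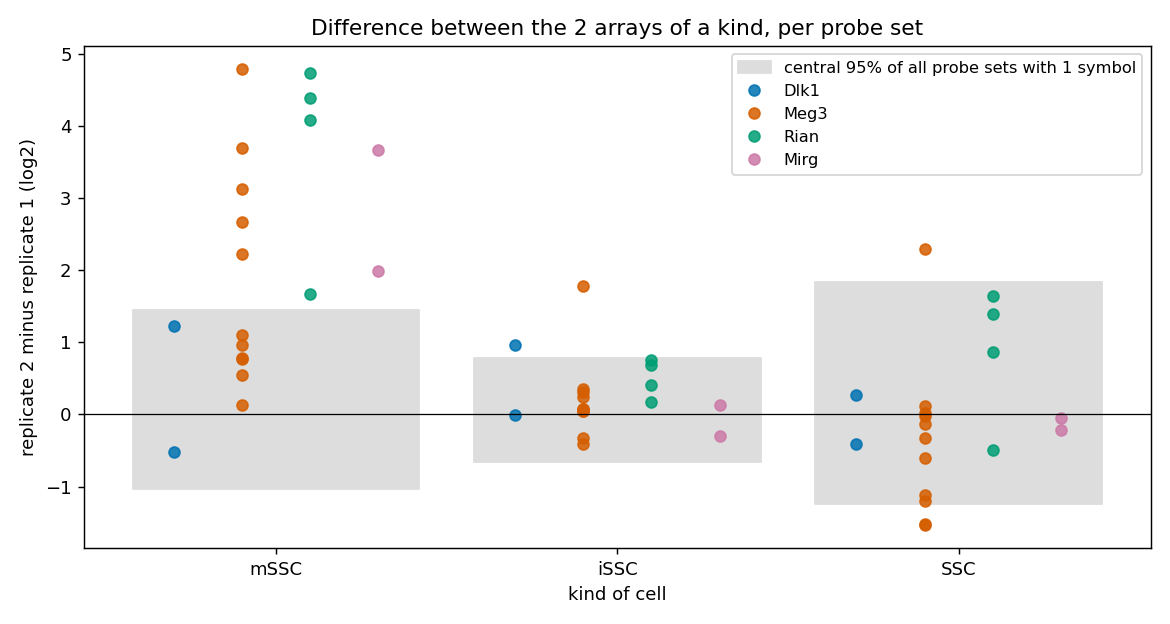
Replicate 2 minus replicate 1 (log2, y axis) within each kind of cell (x axis). A point is 1 probe set, and the grey band holds the central 95% of all 34958 probe sets with 1 symbol. All 4 Rian, both Mirg and 5 Meg3 probe sets lie above the band in mSSC, as do Meg3 1436713_s_at in iSSC and SSC and Dlk1 1449939_s_at in iSSC, and 2 Meg3 probe sets lie below it in SSC.

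No comparison of kinds called a probe set of the domain. Of the 19 probe sets 0 were called in mSSC against SSC, 0 in iSSC against SSC and 0 in mSSC against iSSC (limma, adjusted over all probe sets with 1 symbol). The shares called among all of them were 12.9%, 0.215% and 12.2%. At an unadjusted p under 0.05 there were 1, 0 and 1 of the 19, where 28.9%, 15.4% and 27.2% of all probe sets with 1 symbol passed. The comparisons with mSSC share those arrays, and the same residual spread enters all 3. A wide gap between the mSSC arrays, in view of which the genes were chosen, widens that spread. Few calls were thus favoured by the choice, and nothing is read from these counts beside the shares. The direction in mSSC depended on the array. Set against the SSC mean, Mirg 1457030_at was at 3.09 in mSSC replicate 2 and at -0.58 in replicate 1, Rian 1452899_at at 2.59 and -1.80, and Meg3 1439380_x_at at 0.23 and -2.89. Dlk1 1449939_s_at was below the SSC mean in both, at -1.40 in replicate 2 and -2.62 in replicate 1. In mSSC replicate 2, 4 of 4 Rian, 2 of 2 Mirg, 6 of 11 Meg3 and 0 of 2 Dlk1 probe sets exceeded both SSC arrays, where 39.2% of all probe sets did. In iSSC, 12 of the 19 lay below both SSC arrays, 8 of them Meg3, where 18.8% of all did. Probe sets of the same gene are not independent, and some margins were narrow. In Meg3 1452906_at iSSC replicate 2 read 5.55 and SSC replicate 2 read 5.57. These counts are a description and not a test.

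Genes on either side of the domain did not share the gap. Of 16 neighbouring genes measured, from Bcl11b to Wdr25 before Dlk1 and from Dio3os to Dync1h1 after Mirg, 2 were higher in mSSC replicate 2 than in replicate 1, with differences from -1.43 for Evl, an actin regulator, to 0.45 for the mitochondrial carrier Slc25a29. Past 2-fold higher were 0 of the 16, where 4.52% of genes passed. Wdr25, the nearest measured gene before Dlk1, read 6.96 and 6.78 in mSSC, 7.21 and 7.23 in iSSC and 6.80 and 6.51 in SSC. Dio3os, the antisense RNA at the distal end of the imprinted domain, read 6.86 and 6.24 in mSSC, 6.72 and 6.54 in iSSC and 6.57 and 6.31 in SSC. Its arrays overlapped between mSSC and SSC. In mSSC against SSC 1 neighbour was called, the phosphatase subunit Ppp2r5c, which rose by 1.76 ± 0.26 (limma adjusted p = 0.0137). Rtl1, Dio3 and Begain were not analysed here, as no probe set carried their symbol alone.

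**Figure D3:**
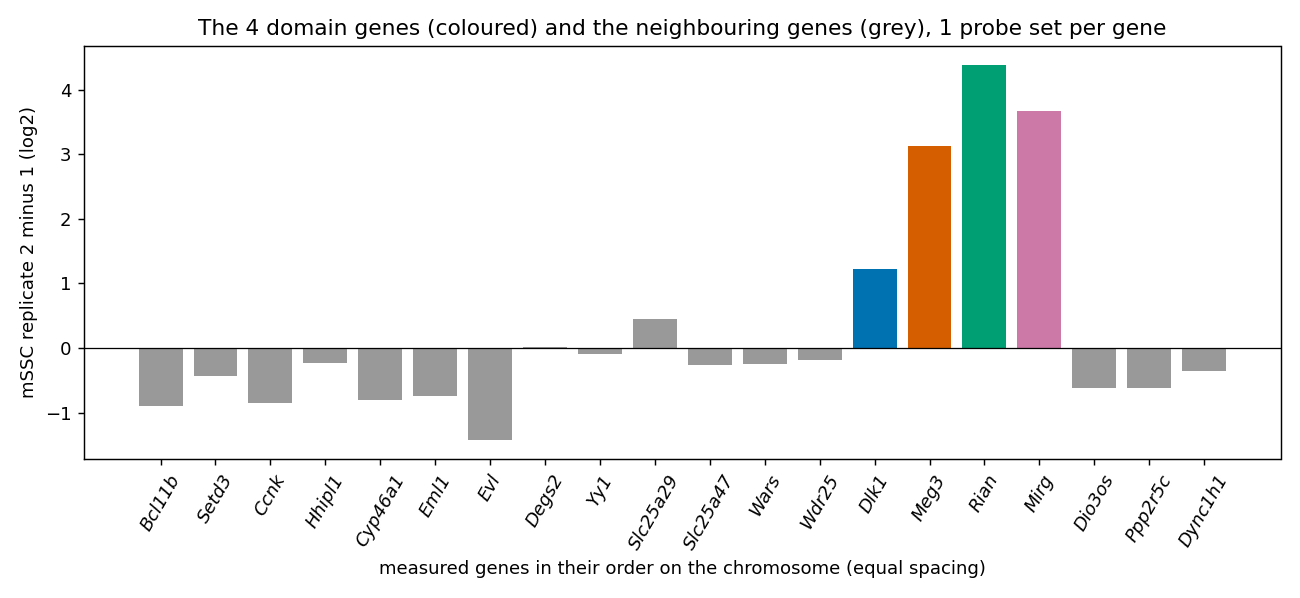
Difference between the mSSC arrays (replicate 2 minus replicate 1, log2, y axis) for the 20 measured genes of the region in chromosome order, evenly spaced (x axis), each by its probe set with the highest mean. Dlk1, Meg3, Rian and Mirg stand at 1.22, 3.12, 4.39 and 3.67, and the 16 grey neighbours between -1.43 and 0.45.

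Imprinted genes elsewhere in the genome had median differences near 0 between the mSSC arrays. Over 23 maternally expressed genes the median of replicate 2 minus replicate 1 was -0.03, with 2 past 2-fold higher, and over 24 paternally expressed genes it was -0.18, also with 2. Of all genes 4.52% were past 2-fold higher. The growth factor receptor adaptor Grb10, maternally expressed in most tissues, read 6.98 and 9.73 in mSSC, 9.81 and 10.91 in iSSC and 11.01 and 10.96 in SSC. The growth factor gene Igf2 read 7.83 and 9.39 in mSSC, 11.44 and 11.33 in iSSC and 11.71 and 12.67 in SSC. Like Dlk1, both lay in mSSC replicate 2 above replicate 1 yet below the SSC arrays. Also past 2-fold higher were the maternally expressed Tfpi2 and the paternally expressed Plagl1. Tfpi2 read 4.91 and 7.05 in mSSC, 8.73 and 7.44 in iSSC and 8.77 and 7.07 in SSC. Plagl1 read 10.24 and 11.72 in mSSC, 9.09 and 8.91 in iSSC and 9.89 and 10.59 in SSC. Plagl1 was thus highest in mSSC replicate 2, as Rian and Mirg were. Other genes of the lists went the other way: Nnat, a paternally expressed gene of the nervous system, read 9.43 and 6.50 in mSSC, 8.14 and 7.71 in iSSC and 6.97 and 7.52 in SSC. The maternally expressed ubiquitin ligase gene Ube3a differed by -1.47 between the mSSC arrays and Nap1l5, a paternally expressed gene, by -1.09. Igf2 was called in mSSC against SSC (-3.58 ± 0.57, limma adjusted p = 0.0164) and Grb10 was at -2.63 ± 0.89 (adjusted p = 0.115).

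Between kinds, 1 of the 23 maternally expressed genes rose and 3 fell in mSSC against SSC, with a median of 0.22, and 5 of the 24 paternally expressed genes rose and 5 fell, with a median of 0.37. Over all genes 6.56% rose and 8.51% fell, with a median of 0.08. Phlda2, a brake on placental growth, rose by 3.12 ± 0.23 (limma adjusted p = 0.00308), and the cell cycle inhibitor Cdkn1c changed by -2.54 ± 0.24 (adjusted p = 0.00472). Ndn, a gene of the Prader-Willi region, changed by -2.01 ± 0.23 (adjusted p = 0.00724), and the retroelement-derived Peg10, near background in SSC, by 1.44 ± 0.25 (adjusted p = 0.0202). The transcription factor gene Peg3 was the 1 imprinted gene of these lists called in iSSC against SSC, at -3.12 ± 0.27 (adjusted p = 0.0435). In that comparison 0.236% of all genes were called, and limma called 0 probe sets after quantile normalization, against 75 without it. Igf2r and Mest were at -0.99 ± 0.43 (adjusted p = 0.203) and 2.61 ± 0.72 (adjusted p = 0.0700) in mSSC against SSC.

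Among genes that set, keep or erase imprints more rose than fell in mSSC, and 5 differed by more than 2-fold between its arrays. Of 25 measured, 8 rose and 1 fell in mSSC against SSC, with a median of 0.98, where 6.56% of all genes rose and 8.51% fell. In mSSC replicate 2, 1 was past 2-fold higher than in replicate 1 and 4 were past 2-fold lower. Of all 18194 genes 823 were past 2-fold higher and 580 past 2-fold lower. The dioxygenase gene Tet1, near background in SSC, rose by 7.28 ± 0.22 (limma adjusted p = 0.000986) and Zfp57, which guards methylated imprints, by 2.62 ± 0.23 (adjusted p = 0.00400). Dnmt3l, the cofactor of de novo methylation, rose by 6.49 ± 0.46 (adjusted p = 0.00289), and Aff3, a protein that binds the control region of this domain in mouse stem cells, changed by -1.80 ± 0.37 (adjusted p = 0.0325). The de novo methyltransferase Dnmt3a read 11.39 and 8.95 in mSSC, 8.70 and 8.75 in iSSC and 8.80 and 8.80 in SSC. In all 5 of its probe sets it was lower in mSSC replicate 2 than in replicate 1, with differences from -2.44 to -0.65, and was not called (1.37 ± 0.74, adjusted p = 0.288). For Dnmt3l the difference was -1.17, with 12.42 and 11.25 in mSSC, 6.09 and 5.63 in iSSC and 5.69 and 4.99 in SSC. Dppa3, which protects maternal methylation in the mouse zygote, differed by -1.22, with 9.85 and 8.63 in mSSC, 7.00 and 6.16 in iSSC and 6.47 and 6.06 in SSC. Zfp57 differed by -0.37 between the same arrays, while the 4 Tet1 probe sets ranged from -0.25 to 1.30. Tet2, a dioxygenase gene like Tet1, was higher in mSSC replicate 2 in both of its probe sets, by 0.32 to 2.15, and Arid4b, a chromatin factor, differed by -2.23. In iSSC against SSC 1 of the 25 was called, Zfp445, a zinc finger protein that keeps imprints, at -2.58 ± 0.23 (adjusted p = 0.0435). Limma called 0 probe sets in that comparison with the replicate number as a block, after quantile normalization and in 5 of the 6 fits that left out 1 array, so the calls of Zfp445 and Peg3 are lost there.

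Dlk1 belongs by structure to the Notch ligand family and is known as a marker of preadipocytes. Of 24 Notch pathway genes 2 rose and 3 fell in mSSC against SSC, with a median of -0.06. The ligand Dll1 rose by 2.10 ± 0.32 (limma adjusted p = 0.0146) and the coactivator Maml1 changed by -1.64 ± 0.25 (adjusted p = 0.0144). Of 12 adipocyte lineage genes 2 rose and 3 fell, with a median of -1.03, among them the lipid carrier Fabp4 at -3.56 ± 0.60 (adjusted p = 0.0197) and Klf5, also a pluripotency factor, at 4.39 ± 0.47 (adjusted p = 0.00633).

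Fibroblast genes moved with the gap between the mSSC arrays. Of 35 measured, 25 were past 2-fold higher in mSSC replicate 2 than in replicate 1 and 1 was past 2-fold lower, with a median of 1.66, where 4.52% of genes were past 2-fold higher. Their summed linear signal was 20780 and 42780 in mSSC, 51330 and 67910 in iSSC and 193100 and 120200 in SSC. It was thus below both SSC arrays in mSSC replicate 2, where 33 of the 35 genes lay below both SSC arrays and 2 above both. In the same array all 6 Rian and Mirg probe sets lay above both SSC arrays. So did Lum, a gene of the fibroblast list. Dlk1 1449939_s_at lay below both SSC arrays there, and the 4 Meg3 probe sets first described lay between the SSC arrays. Between the SSC arrays the fibroblast median of replicate 2 minus replicate 1 was -0.67. Those 4 Meg3 probe sets also fell there, by -1.54 to -1.11, while the 3 wider-ranging Rian probe sets rose. What these orders owe to fibroblasts was not tested. The collagen gene Col6a2 fell in mSSC against SSC by 4.73 ± 0.42 (limma adjusted p = 0.00433).

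The medians of the other gene lists were nearer 0 between the mSSC arrays. The median of replicate 2 minus replicate 1 was 0.45 over 20 pluripotency genes, 0.26 over 22 germ line genes, 0.33 over 15 endoderm genes, 0.15 over 19 Sertoli cell genes and -0.01 over 19 macrophage genes. It was -0.04 over 9 Leydig cell genes, -0.32 over 12 peritubular muscle genes, -0.01 over 12 endothelial genes, -0.42 over 13 trophoblast genes and -0.27 over 14 mesoderm and muscle genes. It was 0.52 over the 12 adipocyte lineage genes, -0.28 over the Notch pathway genes and -0.14 over the imprint control genes. Some genes of these lists still differed widely. Past 2-fold higher in mSSC replicate 2 were 5 adipocyte lineage, 5 pluripotency, 4 endoderm and 3 macrophage genes, where 4.52% of all genes were. Past 2-fold lower were 0, 0, 0 and 1 of these lists, and 3 trophoblast genes. The summed macrophage signal was 1924 and 4015 in mSSC, 23600 and 14330 in iSSC and 74200 and 47050 in SSC. A measure of RNA quality also differed between the arrays of each kind. The 3′ minus 5′ signal of the beta-actin control was 0.61 and 0.12 in mSSC, 0.47 and 0.30 in iSSC and 0.89 and 0.20 in SSC. In each kind it was smaller in replicate 2, the array in which Meg3 1436713_s_at and the 3 wider-ranging Rian probe sets were higher. Others went the other way in SSC. There the 4 Meg3 probe sets first described differed by -1.54 to -1.11, Rian 1440001_at by -0.49 and Mirg by -0.22 and -0.05. The part of the fibroblast signal and of RNA quality in the values of the domain was not tested.

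**Figure D4:**
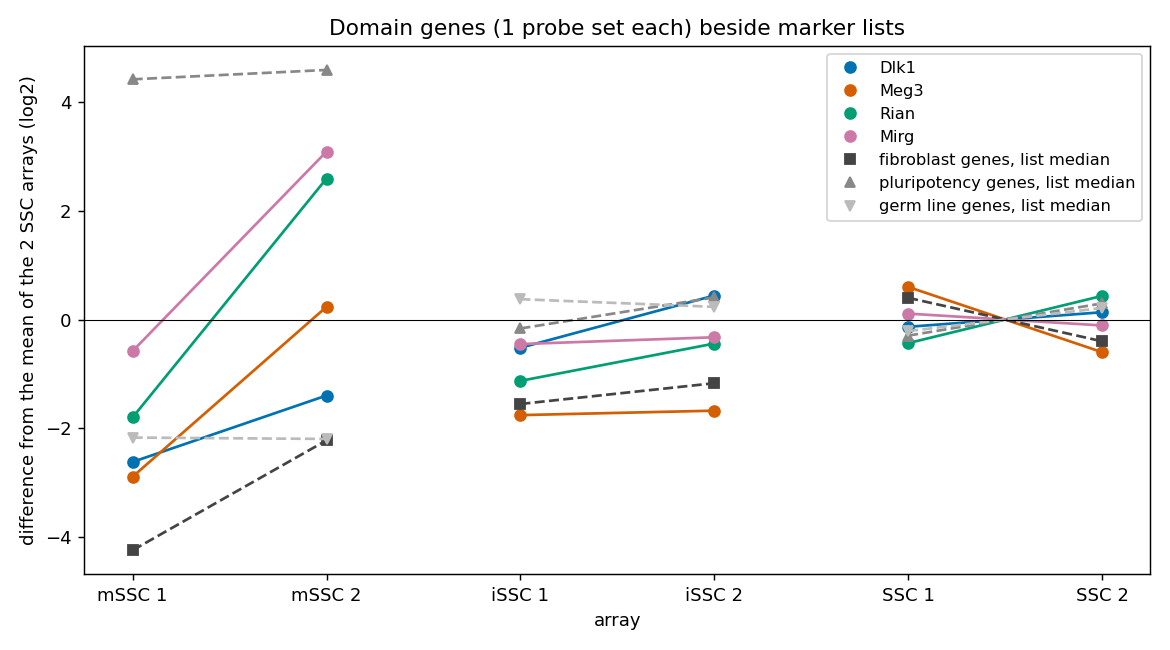
Difference from the mean of the SSC arrays (log2, y axis) on each array (x axis) for Dlk1, Meg3, Rian and Mirg, each by its probe set with the highest mean, and for the medians of 3 marker lists (dashed). Lines join the 2 arrays of a kind. In mSSC replicate 2 Mirg and Rian stand at 3.09 and 2.59, Meg3 near 0, and Dlk1 and the fibroblast genes below 0.

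Genes with a similar course over the 6 arrays differed from one member to the next. Among 3364 genes with a range of at least 2, those most like Dlk1 1449939_s_at were Zfp521, Galnt4, Anxa5, Larp6, Tll1 and Oaf, with a Pearson correlation of 0.988 to 0.998. Those most like Meg3 1439380_x_at were Inhba, Sema3c, Mllt6, Meis2, Fryl and Plpp3, at 0.927 to 0.973. The same measure was taken for the others after their values had been seen. Most like Mirg 1457030_at were Zfp934, Pramel7, Pramel6, Bnipl, Gm21283 and 2310043M15Rik, at 0.963 to 0.983, and like Rian 1452899_at Dhdh, Mirg itself, Esm1, Trim30a, Lum and Zfp934, at 0.890 to 0.966. Mirg stood out on 1 array, mSSC replicate 2, so its correlations rest largely on that array. They are the highest of many and are a description. Pramel7, a gene of the inner cell mass, read 4.00 and 8.02 in mSSC, 3.93 and 3.92 in iSSC and 3.94 and 3.84 in SSC. Pramel6 read 3.59 and 7.75 in mSSC, 3.44 and 3.50 in iSSC and 3.32 and 3.17 in SSC. Both were highest in mSSC replicate 2, as Mirg was, and were near background on the other 5 arrays. Lum, a proteoglycan gene of the fibroblast list, read 7.79 and 11.37 in mSSC, 7.72 and 7.58 in iSSC and 8.69 and 10.66 in SSC.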

How the data were processed

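Total RNA (10 µg, Trizol) was amplified with a NuGEN Ovation kit, labelled with biotin and hybridised to Affymetrix arrays, per the labels' protocols. The authors deposited log2 signals of 45101 probe sets on 6 arrays, made with RMA per the submitters' processing notes, with its version not given in the sources used here. Of these, 34958 probe sets had 1 gene symbol in the platform annotation, 932 had several and 9211 had none, and 34754 matched RefSeq by gene ID. The 3 comparisons were fitted with limma 3.58.1 (R 4.3.3; lmFit, eBayes) on the 6 arrays together, and p-values were adjusted by Benjamini-Hochberg over the 34958, with a threshold of 0.05. The fit was tested on simulated data. SEs are those of the fit. Precision is limited by the number of arrays. The members and the gene lists were chosen with earlier results of these data known. In a list each gene is represented by its probe set with the highest mean. Named are every probe set of the 4 members, up to 4 genes a list with the smallest p in mSSC against SSC, and a set of imprinting genes. Other genes named, among them Zbtb16, Evl, Slc25a29, Wdr25, Dio3os, Tfpi2, Plagl1, Nnat, Ube3a, Nap1l5, Dppa3, Aff3, Tet2, Arid4b, Zfp445 and Lum, were chosen after their values were seen. Likeness is Pearson's correlation over the 6 arrays. Alternatives were the replicate number as a block, scaling, filters, probe set summaries, variance models and leaving out arrays. Promoter and microRNA sequences are from RefSeq (GRCm38.p6).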

Additional observations from a re-analysis of the deposited data

How the results depend on the processing

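Limma called 4508 probe sets in mSSC against SSC, 75 in iSSC against SSC and 4281 in mSSC against iSSC. The first count was 1720 with only the 4 arrays compared and 1720 to 5961 when 1 array was left out (1992 without mSSC replicate 1 and 2435 without mSSC replicate 2). The third was 2784 with the probe sets of a gene averaged and 231 to 6095 when 1 array was left out (231 and 346 without iSSC replicate 1 and 2, 1905 and 2510 without mSSC replicate 1 and 2). The iSSC against SSC count was the least settled: 45 with arrays centred on their medians, 381 with 1 probe set per gene, 29 with probe sets of a gene averaged, 44 with all probe sets of the array, 121 with an intensity trend, 130 with trend and robust fitting, and 0 after quantile normalization and with only the 4 arrays compared. When 1 array was left out it was 0 to 1757, with 1757 without SSC replicate 2 and 0 in the other 5 cases. At an unadjusted p under 0.05 the fit on 6 arrays held 5377 probe sets in that comparison. A fit that leaves 1 array in a kind assumes that it varies like the other kinds, and fewer arrays leave fewer degrees of freedom. Beyond that the cause was not tested.

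With the replicate number as a block the counts were 4812 in mSSC against SSC, 0 in iSSC against SSC and 4514 in mSSC against iSSC. The labels give the samples a shared number and no shared origin, and 2 numbers are too few to show a pairing. Replicate 2 minus replicate 1 correlated at 0.23 between mSSC and iSSC, 0.22 between mSSC and SSC and 0.19 between iSSC and SSC over 34958 probe sets.

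The median difference between the mSSC arrays over the 19 probe sets of the domain was 1.98, and 1.95 to 3.39 under its 5 alternatives. Of 513 alternative values of their group differences, 64 moved by more than the replicate spread, all on leaving out an mSSC array. Under another scaling or the block 0 of 171 did so. The block, and leaving out an array of a kind not compared, cannot change a group difference. Leaving out an mSSC array shifts it by an amount set by the gap between those arrays, so the 64 restate that gap. The level of Meg3, Rian and Mirg in mSSC therefore rests on which of its arrays is taken.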
